A study of Mus musculus with 4 samples.

Results

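The genes described here were taken by a symbol rule aimed at the proteases of basophil, mast cell and cytotoxic lymphocyte granules, as every listed gene whose symbol begins with Prss and a digit, Mcpt, Cma and a digit, Tps or Gzm, or is Cpa3. Among the 5807 genes of the deposited comparison 7 met this rule, namely Prss34, Mcpt8, Cpa3, Prss57, Prss16, Prss2 and Gzmm. By symbol the rule also takes in Prss57, Prss16 and Prss2, which are known from neutrophils, thymus and pancreas. The 7 genes were read in eosinophils sorted from wild-type (WT) mice injected with LLC, a mouse Lewis lung carcinoma line, 2 days earlier. One group was pleural lavage eosinophils (labelled MPE) and the other was bone marrow eosinophils (BM), whose labels carry the same genotype and LLC, with 2 libraries in each. The deposited table gives the authors' mean read count of each group and no value per library, so replicate spread could not be computed, no gene was tested, and whether mice were pooled for a library is not given in the sources used here. The study's methods, like the labels, give the marrow as that of mice with LLC, although its results text calls these cells naïve.

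Granule proteases are stored bound to proteoglycan in secretory granules, and are released when the cell degranulates. Prss34 and Mcpt8 are basophil proteases of the mouse, Cpa3 is a metallo-carboxypeptidase shared by mast cells and basophils, the tryptases and chymases belong to mast cells, and the granzymes are best known from killer lymphocytes. Eosinophils are known for the cationic granule proteins Prg2 and Epx and for ribonucleases rather than for these proteases.

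In pleural cavity eosinophils 6 of the 7 genes were at least 2-fold lower than in bone marrow eosinophils and 1, Gzmm, was at least 2-fold higher. Among all listed genes 50.5% were at least 2-fold lower and 16.0% at least 2-fold higher. The listing itself was made from this comparison, so these directions are given as a description. The median log2 ratio of the 7 genes was -7.72, beside -1.02 over all listed genes. Summed over the 7, there were 1274 reads per 1000000 reads of listed genes in bone marrow and 19.2 in the pleural cavity. All ratios were scaled to the summed reads of the listed genes, 15947438 in the pleural cavity and 11762543 in bone marrow, since the depth of each library is not known. An alternative, called median scaling here, sets the median log2 ratio of genes with at least 1000 reads in both tissues to 0. The share of higher genes among all listed genes depends on this choice. They numbered 929 with the main scaling, 1770 without scaling and 525 with the median scaling. Intervals are 95% intervals for counting error alone, taken over the reads of both libraries, and do not hold the variation between mice.

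The label of the cells was checked against 10 eosinophil markers, of which 9 were listed, 7 at least 2-fold lower and 2 at least 2-fold higher in the pleural cavity, with a median log2 ratio of -8.43. Ccr3, the eotaxin receptor, had an authors' mean of 67556.5 reads in the pleural cavity and 17177.5 in bone marrow, and Siglecf, the surface lectin used in the sort, had 21371 and 7105.5, at log2 ratios of 1.54 and 1.15, the second of which was 0.71 with the median scaling. Both were thus abundant in both groups. The granule gene Prg2 had 1482 reads against 555403.5, and Epx 341.5 against 139061.5, so these eosinophil granule genes were far lower in the pleural cavity as well. Il5ra was not listed. The sorting gates differed: pleural cavity cells were enriched on CD45 and gated as live cells positive for CD11b, F4/80 and SiglecF, negative for CD11c and negative or low for Gr1, whereas bone marrow cells were enriched on F4/80 and gated as live cells positive for CD45 and SiglecF, both with high side scatter. The study reports very high purity and viability for the sorted cells, and checked their purity by Wright-Giemsa staining. Tissue, gate and enrichment cannot be told apart in this design, and neither can fewer cells of a type and less RNA per cell.

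The 10 markers of neutrophils and their precursors, which include the protease genes Elane, Prtn3 and Ctsg, were all listed and all lower in the pleural cavity, with a summed mean of 2528.5 reads there and 1207139.5 in bone marrow. Ngp was the most abundant of them in both groups, at 546.5 and 263228.5 reads. Of the bone marrow reads of listed genes these markers held 102626 reads per 1000000, more than the 95539 of the 9 listed eosinophil markers. In the pleural cavity the neutrophil markers held 158.6 reads per 1000000 and the eosinophil markers 7662. The part of neutrophils and their precursors in the results below was not tested.

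Among the 7 genes the basophil proteases Prss34 and Mcpt8 had the lowest log2 ratios, although the wide interval of Prss16 given below overlaps both. Prss34 (ENSMUSG00000056399), a trypsin-like protease also known as mMCP-11, had an authors' mean of 4.5 reads in the pleural cavity against 3810.5 in bone marrow. It was 1148-fold lower in the pleural cavity (interval 604.5 to 2512), a log2 ratio of -10.01 with 0.5 reads added to each mean, which was the lowest of the 5807 listed genes. Its interval overlaps those of all the neutrophil markers except Prtn3, so that place does not hold beyond counting error. The 9 reads behind the pleural cavity value make the upper end of that interval loose.

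Mcpt8 (ENSMUSG00000022157), the protease used to mark mouse basophils, had 5.5 reads in the pleural cavity and 2668 in bone marrow. It was 657.7-fold lower (interval 367.3 to 1318), at rank 17 from the lowest. The intervals of Prss34 and Mcpt8 overlap, so their ratios could not be told apart at this depth.

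Cpa3 (ENSMUSG00000001865), which trims the carboxy-terminal end of peptides and is stored with the mast cell chymases and tryptases, had 17.5 reads in the pleural cavity and 2802 in bone marrow. It was 217.1-fold lower (interval 155.9 to 312.0). That interval lies below those of Prss34 and Mcpt8, so Cpa3 kept relatively more reads in the pleural cavity than either basophil protease, by counting error alone. The 3 genes together had 789.0 reads per 1000000 listed reads in bone marrow and 1.72 in the pleural cavity.

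**Figure D1:**
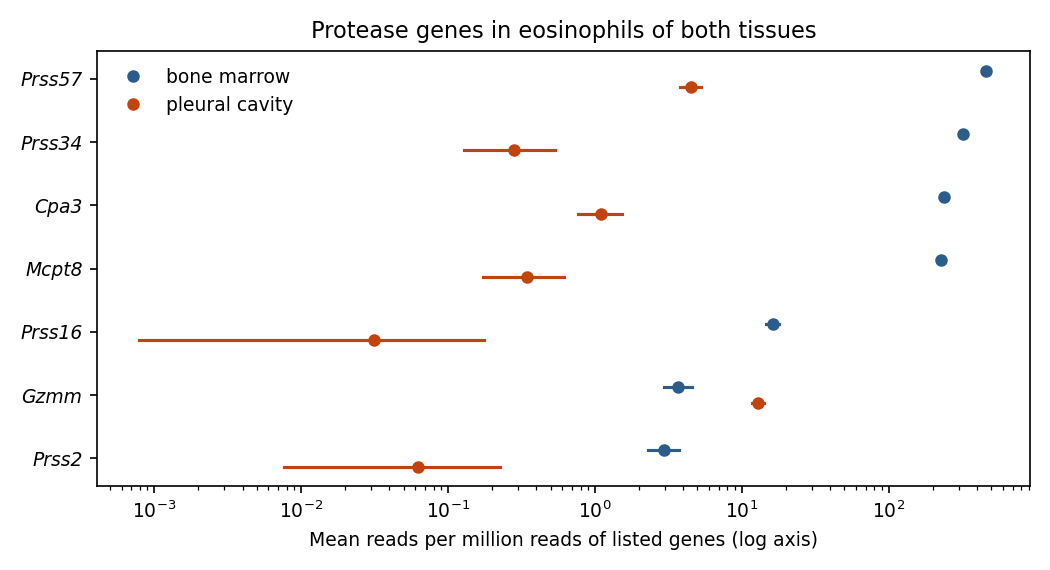
Authors' mean reads per 1000000 reads of listed genes for the 7 protease genes, on a log axis, in bone marrow (blue) and pleural cavity eosinophils (orange), with bars for the 95% counting interval over both libraries of a tissue. The pleural cavity point lies left of the bone marrow point for 6 genes and right of it for Gzmm, which had 205.5 against 43.5 mean reads.

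Prss57, also called neutrophil serine protease 4 (NSP4), is an azurophil granule protease that cuts after arginine. It had the most reads of the 7 genes in bone marrow, 5436.8, against 72.1 in the pleural cavity, and was 102.4-fold lower there (interval 86.9 to 121.5). The other neutrophil serine proteases were further apart. Elane, neutrophil elastase, had 135.5 reads against 80228.5 and was 802.7-fold lower, and Ctsg, cathepsin G, had 38 against 19611.5 and was 699.7-fold lower. Prtn3, proteinase 3, had 157 against 20094 and was 173.5-fold lower. The mean of Prss57 holds fractions of reads shared between genes (split reads). At its 3′ end it shares 1157 bases with Fstl3 on the opposite strand, which has split reads too, 419.4 against 122.7. Whether the counting used strand is not given in the sources used here, so reads of the shared stretch cannot be assigned to either gene.

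Prss16, a thymus-specific serine protease of lysosomes and endosomes involved in T cell selection, rested on few reads. It had 0.5 reads in the pleural cavity, which is 1 read over both libraries, and 192 in bone marrow, a 520.6-fold difference with an interval from 92.9 to 20616. Prss2, the trypsinogen of the pancreas, had 1 read against 35 and was 47.5-fold lower with an interval from 12.7 to 399.5. For both genes the direction is clear of counting error and the size is not. Prss1, a trypsinogen gene within 100 kb of Prss2, was not listed.

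Gzmm (ENSMUSG00000054206), granzyme M, was the exception. This granzyme, known from natural killer cells, cuts after methionine and leucine. Its authors' mean was 205.5 reads in the pleural cavity against 43.5 in bone marrow, so it was 3.48-fold higher in the pleural cavity (interval 2.76 to 4.44). It ranked 361 from the highest among the listed genes. Under each of the scalings tried its log2 ratio stayed above 1, from 1.34 to 2.23, but it did not reach 4-fold with the main scaling.

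Levels were compared between genes after division by the length of the longest transcript in the annotation, as reads per 1000000 listed reads and per kilobase. In bone marrow the level was 265.5 for Prss34 (interval 259.6 to 271.6), 240.0 for Mcpt8 and 164.4 for Cpa3, followed by 162.7 for Prss57. The levels of Cpa3 and Prss57 did not differ beyond counting error. Prss16 at 5.19, Prss2 at 3.65 and Gzmm at 2.87 were far lower, and the last 2 of these had overlapping intervals. Prss34 was at a higher level than 95.2% of the listed genes with a known length in bone marrow, and than 21.9% of them in the pleural cavity.

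In the pleural cavity the order of the levels was another one. Gzmm stood first at 10.01 reads per 1000000 listed reads and per kilobase, followed by Prss57 at 1.59, Cpa3 at 0.757, Mcpt8 at 0.365 and Prss34 at 0.231. Prss2 was at 0.0769 and Prss16 at 0.00997. Neighbours in this order from Cpa3 downwards had overlapping intervals, and so did Mcpt8 and Prss2. Gzmm, Prss57 and Cpa3 stood above Prss34 beyond counting error. Per kilobase, the level of Prss34 was 1.62 times that of Cpa3 in bone marrow and 0.305 times that of Cpa3 in the pleural cavity. Prss57 stood 56.6 times above Gzmm in bone marrow and at 0.159 of Gzmm in the pleural cavity.

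Most genes of these families were not listed, which means only that they were not called different or not tested. The annotation holds 62 protein-coding genes that match the rule, and 55 of them were not listed. Of 10 granzyme genes 9 were not listed, among them Gzma and Gzmb, the main granzymes of killer lymphocytes. Of the 5 Mcpt genes 4 were not listed, and neither were the mast cell chymase Cma1 nor the tryptases Tpsb2 and Tpsab1. The 5 symbols that begin with Tps include Tpst1 and Tpst2, which encode sulfotransferases and not tryptases.

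The list of 9 basophil markers holds Prss34, Mcpt8 and Cpa3 themselves. Of the 9 markers 8 were listed, 7 at least 2-fold lower and 1 at least 2-fold higher, with a median log2 ratio of -6.33. Without the 3 protease genes 4 of the other 5 were lower and 1 was higher, with a median of -2.92. Ms4a2, the beta chain of the high-affinity IgE receptor, had 4 reads against 809 and was 274.2-fold lower (interval 138.8 to 636.2). Fcer1a, its IgE-binding alpha chain, had 29 against 666.5 and was 31.2-fold lower. Gata2, a transcription factor of basophils and mast cells, had 113 against 633, a 7.59-fold difference, and Il3ra, the alpha chain of the IL-3 receptor, had 139 against 323.5.

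Itga2, the integrin alpha-2 chain that stains basophils and natural killer cells as CD49b, went the other way. It had 5047.5 reads in the pleural cavity and 111 in bone marrow, 33.5-fold higher (interval 29.4 to 38.5). It was the most abundant basophil marker in the pleural cavity, so the list summed to 5360 reads there and 11823.5 in bone marrow, and without the proteases to 5332.5 and 2543. Prss34 was the most abundant of the list in bone marrow. Cd200r3 was not listed.

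**Figure D2:**
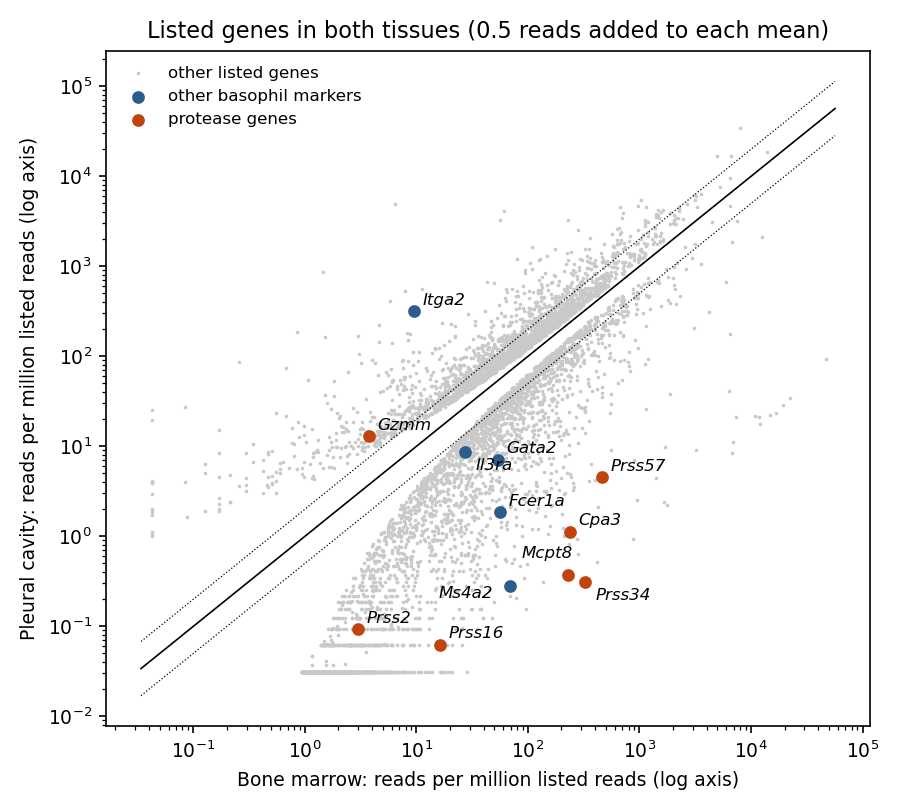
Reads per 1000000 listed reads in bone marrow (x axis) and in the pleural cavity (y axis) for the 5807 listed genes, both axes log, with the 7 protease genes in orange, the other basophil markers in blue, the line of equal levels solid and 2-fold differences dotted. Prss34 and Mcpt8 lie at the lower right, with Ms4a2 to their left at a similar height, whereas Gzmm and Itga2 lie above the line.

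Mast cell markers gave few values. Of 9, the 3 listed were Kit, the stem cell factor receptor, with 232.5 reads against 1676, Hs3st1, a heparan sulfate sulfotransferase, with 91 against 10.5, and Mrgprb1, a mast cell receptor of the Mrgpr family, with 0 against 40.5. Kit was 9.77-fold lower and Hs3st1 6.39-fold higher in the pleural cavity, and Mrgprb1 was at least 36.6-fold lower when 3 reads over both libraries are taken as the floor, with a counting limit of 29.1-fold. The summed reads of the list were 323.5 and 1727, with Kit the most abundant in both groups. The defining genes Cma1, Tpsb2, Tpsab1, Mcpt4 and Mrgprb2 were not listed.

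Markers of natural killer and cytotoxic T cells were given beside Gzmm. Of 13 markers 4 were listed and all 4 were at least 2-fold lower in the pleural cavity, whereas Gzmm was higher. Among all listed genes 50.5% were lower to this extent. Nkg7, a protein of cytotoxic granule membranes, was the most abundant in both groups, with 112 reads in the pleural cavity and 10432 in bone marrow. Cd3d, a chain of the T cell receptor complex, had 32 against 123, Klrk1, the receptor NKG2D, had 38 against 94, and Ncr1, the receptor NKp46, had 15 against 61.5. Summed over the list the reads were 197 and 10710.5. The pore-forming Prf1 was not listed, nor were Klrb1c, Cd3e and Cd8a. The part of such cells in the Gzmm value was not tested.

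The IgE receptor pathway, which triggers degranulation in basophils and mast cells, was listed with differing directions. Of 11 genes 7 were listed, 2 at least 2-fold lower (the alpha and beta chains above) and 2 at least 2-fold higher, with a median log2 ratio of 0.33. The kinase Syk had 13396.5 reads against 4810, a 2.05-fold difference, and the phospholipase Plcg2 had 11092 against 3577.5, a 2.29-fold difference. Fcer1g, the signalling gamma chain of the receptor, which eosinophils also use for other Fc receptors, had 28539 against 16861, a log2 ratio of 0.32. The kinase Lyn was at 0.67, with split reads, and at 1.11 without scaling. With the median scaling Fcer1g and the phosphatase gene Inpp5d changed sign to -0.12, and Syk and Plcg2 fell under 2-fold at 0.59 and 0.75.

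Among transcription factors of basophils and mast cells 4 of 8 were listed. Gata2 was lower, as given above. Gata1, which eosinophils need for their development, had 7241 reads against 2477 and was 2.16-fold higher, a log2 ratio of 1.11 that was 0.66 with the median scaling. Ikzf1 and Stat5b were within 2-fold, at log2 ratios of -0.58 and 0.43, but with the median scaling Ikzf1 was at -1.02 and Stat5b changed sign to -0.01. Mitf, Cebpa, Runx1 and Stat5a were not listed.

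Genes that store, activate or restrain the proteases were listed in part. Of 11 storage and activation genes 3 were listed. Igf2r, a mannose 6-phosphate receptor, had 325 reads against 686.5, and Rab27a and Stx11, which act in granule release, had log2 ratios of 0.19 and 0.84, of which the Rab27a value was -0.25 with the median scaling and the Stx11 value 1.27 without scaling. Srgn, the proteoglycan core that binds granule proteases, and Ctsc, the peptidase that activates them, were not listed.

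Of 11 serine protease inhibitors 4 were listed and 3 were at least 2-fold lower, with a median log2 ratio of -1.90. Spint2, a Kunitz-type inhibitor, had 443 reads against 2116, and Serpina3g had 56.8 against 538.0 with split reads. Serpinb6a had split reads as well and a log2 ratio of -1.10, which was -0.66 without scaling. Serpinb1a, an inhibitor of neutrophil proteases, was the most abundant in both groups, with 11852.5 against 13927.5 and a log2 ratio of -0.67, which was -1.12 with the median scaling.

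Histamine, the other stored mediator of basophils and mast cells, is made by Hdc. That gene had 1084 reads in the pleural cavity and 9726.5 in bone marrow and was 12.2-fold lower. Slc18a2, which loads histamine into granules, had 447.5 against 764, a 2.31-fold difference that was under 2-fold without scaling, at a log2 ratio of -0.77. Of the partners of cytotoxic granules 2 of 6 were listed, Nkg7 and the lysosomal Lamp1, which had 13847 against 7127 reads.

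The 7 genes lie at 6 places of the GRCm38 genome. Prss34 lies on the plus strand of chromosome 17 from 25298394 to 25300165, with the tryptase genes Tpsab1, Tpsb2 and Tpsg1 and with Prss28 and Prss29 within 100 kb, none of which was listed. The single listed neighbour among 11 coding genes there was Baiap3, with 143.8 reads against 1413. Mcpt8 lies on the minus strand of chromosome 14 from 56082166 to 56085273, in the locus of chymases and granzymes. Of 9 coding neighbours within 100 kb only Ctsg was listed, while Mcpt1, Mcpt2, Mcpt4, Mcpt9, Gzmd, Gzme, Gzmg and Gzmn were not.

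Cpa3 lies on chromosome 3 from 20215620 to 20242181, beside the pancreatic carboxypeptidase gene Cpb1, which was not listed. Its 1 listed neighbour within 100 kb was Gyg, with 1428 reads against 5100 and a log2 ratio of -2.28. Prss2 lies on chromosome 6 from 41521787 to 41525079. Prss16, on chromosome 13 from 22002173 to 22009742, has 5 listed genes among 9 coding neighbours within 100 kb. All 5 are histone genes with split reads and were at least 2-fold lower in the pleural cavity, as were 50.5% of all listed genes. Replication-dependent histone genes are used by dividing cells, whose part in these values was not tested.

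Gzmm and Prss57 share a region of chromosome 10. Gzmm spans 79689020 to 79695261 on the plus strand and Prss57 spans 79781474 to 79790961 on the minus strand, with 86.2 kb between them, and Prtn3 and Elane follow. The log2 ratio was 1.79 for Gzmm, -6.67 for Prss57, -7.43 for Prtn3 and -9.64 for Elane. From Gzmm to Prss57 the other listed genes Bsg, Polrmt and Fstl3 had log2 ratios of 0.34, 0.86 and 1.33, of which that of Bsg changed sign to -0.10 with the median scaling. Beyond Prss57, Palm had 4076.5 reads against 2122 and a log2 ratio of 0.50. Plppr3, which overlaps the start of Prtn3, had 51.6 reads against 867.6 and a log2 ratio of -4.50 with split reads.

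**Figure D3:**
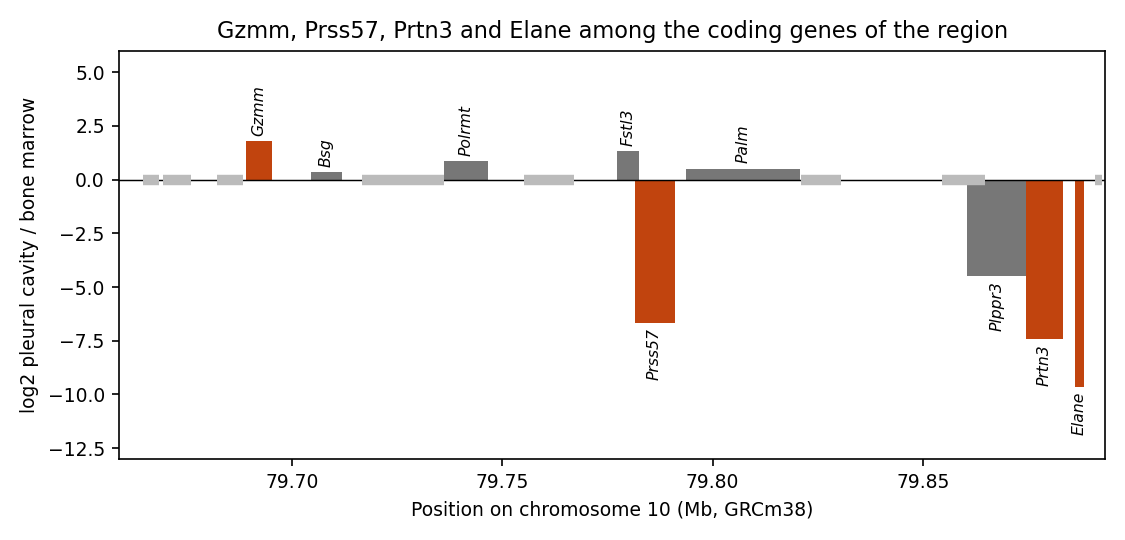
Log2 ratio of pleural cavity over bone marrow reads (y axis, scaled to listed reads) for coding genes of the region of chromosome 10 that holds Gzmm and Elane (x axis, Mb in GRCm38), with bars as wide as the gene, the 4 protease genes in orange, other listed genes in dark grey and genes that were not listed in light grey. Gzmm at 1.79 points up, and Prss57, Prtn3 and Elane point down.

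Promoter windows of 300 bases, 250 before and 50 after the gene start used there, were taken from RefSeq on GRCm38.p6 for the genes with a sequence, 5 of the 7. For Mcpt8 that start lies inside the gene as placed above. They were searched on both strands for the GATA motif (WGATAR, where W is A or T and R is A or G), for the RUNX motif TGTGGT and for the STAT motif TTCNNNGAA, since factors of these families act in basophils, mast cells and eosinophils. Among 32851 promoter windows of that length 29.8% hold a GATA match, 16.8% a RUNX match and 8.30% a STAT match. The windows of Prss34, Cpa3 and Mcpt8 are shown as those of the basophil and mast cell genes of the group, and that of Gzmm as the one gene that was higher. Capitals mark GATA matches, and each window reads 5′ to 3′ on the strand of the gene.
Prss34, chr17:25298144-25298443, plus strand: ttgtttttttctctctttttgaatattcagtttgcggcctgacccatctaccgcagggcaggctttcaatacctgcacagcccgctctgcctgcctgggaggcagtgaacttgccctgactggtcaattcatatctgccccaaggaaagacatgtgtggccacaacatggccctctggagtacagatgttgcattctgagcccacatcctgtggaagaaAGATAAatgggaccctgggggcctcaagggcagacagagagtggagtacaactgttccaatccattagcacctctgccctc
Cpa3, chr3:20242132-20242431, minus strand: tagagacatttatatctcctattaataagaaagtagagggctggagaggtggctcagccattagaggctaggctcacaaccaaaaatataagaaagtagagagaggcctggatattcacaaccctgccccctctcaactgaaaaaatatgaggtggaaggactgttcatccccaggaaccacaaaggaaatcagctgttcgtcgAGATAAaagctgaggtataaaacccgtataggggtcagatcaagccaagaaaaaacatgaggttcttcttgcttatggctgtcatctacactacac
Mcpt8, chr14:56085148-56085447, minus strand: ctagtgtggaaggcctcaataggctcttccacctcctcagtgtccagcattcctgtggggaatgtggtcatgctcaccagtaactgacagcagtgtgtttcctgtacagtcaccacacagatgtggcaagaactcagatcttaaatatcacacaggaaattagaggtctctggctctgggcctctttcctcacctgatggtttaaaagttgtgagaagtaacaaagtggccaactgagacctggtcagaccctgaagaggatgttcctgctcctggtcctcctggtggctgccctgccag
Gzmm, chr10:79688770-79689069, plus strand: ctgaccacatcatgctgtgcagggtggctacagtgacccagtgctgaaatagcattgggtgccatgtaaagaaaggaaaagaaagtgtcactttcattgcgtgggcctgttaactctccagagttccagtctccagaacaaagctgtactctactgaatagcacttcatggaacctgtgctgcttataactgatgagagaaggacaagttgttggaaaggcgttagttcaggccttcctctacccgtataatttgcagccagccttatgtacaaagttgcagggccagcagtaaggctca

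Prss34 and Cpa3 each hold 1 GATA match, AGATAA on the strand of the gene, which begins 31 bases before the start of Prss34 and 46 bases before that of Cpa3. Cpa3 also holds 1 RUNX match. Mcpt8 holds no GATA match and 2 RUNX matches. The window of Gzmm holds no GATA match, 1 RUNX match and 1 STAT match, and a second RefSeq window of Gzmm at chr10:79693576-79693875 holds 2 GATA matches. Prss2 holds 1 STAT match. Matches of this kind are descriptions of the letters and were not tied to the reads.

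The listed genes whose reads lay closest to Prss34 in both tissues were ranked by distance on the log2 scale of reads per 1000000 listed reads, over 2 group means. Mcpt8 was closest, at a distance of 0.578. Next came Gm52720 and LOC115487110, both with split reads, then Prom1 with 4.5 reads against 1600, which encodes the progenitor surface protein CD133, and Olfm4 with 12.5 against 2723, a gene of neutrophil granules. Cpa3 was at place 10 and Ms4a2 at place 18.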

How the data were processed

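Eosinophils of pleural lavage fluid and of bone marrow were sequenced as 2 libraries each with paired reads of 100 bp. By the authors, reads were trimmed (SOAPnuke), aligned to GRCm38 (HISAT2 2.1.0) and mapped to genes (Bowtie2 2.2.5), and expected counts came from RSEM 1.2.8. Versions are those of the submitters' processing notes. The deposited values are the authors' mean expected counts per tissue, not scaled for depth, of the genes in their list of differentially expressed genes. The depth of each library is not given. The authors' columns of log2 fold change, p-value and q-value come from their own comparison and were not used. Columns of single samples left unused numbered 0, as the file has none. Means that were no whole number of reads over the libraries were called split, which applied to 25.8% of listed genes.

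Ratios were scaled to the summed reads of listed genes, with 0.5 reads added for log2 values and none for folds. A gene was counted at 2-fold or more. Counting intervals were exact (Clopper-Pearson for ratios, Poisson for means) over the rounded reads of both libraries. Lengths and positions came from GENCODE M21 on GRCm38, and 5663 listed genes had a length. Every gene that met the rule was named, with most listed genes of 12 lists of markers and pathways and the 5 genes closest to Prss34. Members and lists were chosen with earlier results of these data known. No p-value was computed: the planned count test needs values per library, and these were not given. The counting of folds was tested on simulated data. Alternatives covered the scaling, fold threshold, pseudocount, a filter on low reads and split reads. Scripts ran in Python 3.11.15 with scipy 1.17.1, numpy 2.4.6, matplotlib 3.10.9 and pandas 2.3.3.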

Additional observations from a re-analysis of the deposited data

How the results depend on the processing

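The 6 lower protease genes were 6 under every scaling, with a threshold of 4-fold and with at least 20 mean reads in one tissue, and 5 without genes of split reads, which leaves out Prss57. The 1 higher gene, Gzmm, was counted in all of these except at 4-fold, where the count was 0. Over all listed genes the 929 counted as higher became 1770 with unscaled reads, 525 with the median ratio of genes with at least 1000 reads in both tissues set to 0, and 306 at 4-fold, whereas the 2935 lower genes became at least 2126 and at most 3326. Of the 49 genes of the lists that are not among the 7 proteases, 7 were higher and 33 lower, and the higher count was 3 with the median scaling and 2 at 4-fold. Against the main scaling, the log2 offset taken off every ratio changed by -0.44 without scaling, by 0.44 with the median ratio and by 0.11 with totals that leave out the 100 most abundant genes, and the sign of 4 of the 56 genes, Fcer1g, Inpp5d, Rab27a and Stat5b, flipped with the median ratio. The log2 ratio of Prss34 lay between -10.46 and -9.57 over the alternatives. Leaving out a library was not possible with group means. No paired analysis was possible because the mean columns carry no replicate number. At 1 or 2 reads over both libraries, the pleural cavity values of Prss16 and Prss2 set only a direction.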
